A study of Mus musculus with 8 samples.

Results

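RING and TRIM ubiquitin ligase genes were described in macrophages sorted from mouse left ventricles. The genes were chosen by symbol (Rnf, Znrf or Trim followed by a digit) and by a level of 1 TPM or more on average across the 8 libraries. TPM is a transcript abundance per length, with an equal total for every library. This gave 101 gene IDs of 36708 in the deposited table, 60 Rnf, 3 Znrf and 38 Trim. A second ID named Rnf181 repeated the values of the first in every library, which left 100 genes in the tests. The mean level chose the members, so the levels below are a description. The genes were also put together with a difference in Znrf2 already known, so the comparison of Znrf2 is a description as well.

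Bulk RNA-seq libraries came from 4 LOY BMT samples (genotype LOY, treatment Control) and 4 Control BMT samples (genotype Control, treatment Control), where LOY stands for a lost Y chromosome and BMT for bone marrow transplantation. In both groups living cells that carried CD45.2, CD64 and red fluorescent protein but not Ly6G were sorted, a gate for cardiac macrophages. The sources used here give neither strain, age nor time after transplantation, and they do not say whether each library stands for its own animal, so p-values measure only the spread between these libraries, which may be technical. The comparison asks how cardiac macrophages differ when transplanted marrow lacks the Y chromosome.

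Ubiquitin is passed from an activating enzyme (E1) to a conjugating enzyme (E2) and, through a ligase (E3), to a target protein. RING ligases hold the loaded E2 beside the target, and the RING fold binds zinc. TRIM proteins join a RING to B-box and coiled-coil domains, and many of them are induced by interferon and act in antiviral defence. In macrophages, ligases of both kinds set the strength of NF-kB and interferon signalling and the turnover of surface receptors. A symbol does not prove ligase activity: Trim14 and Trim44, for example, lack a RING.

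Several libraries stood apart. The summed TPM of the Y genes Ddx3y, Eif2s3y, Kdm5d and Uty was 2.77, 46.4, 1.49 and 2.12 in LOY replicates 1 to 4, and 80.8 to 109.1 in control libraries, so the library labelled LOY replicate 2 lay between the other LOY libraries and the control libraries. The reason was not tested, and its label is in doubt to that extent. All 6 macrophage markers reached 1 TPM, with summed levels of 17840 to 27180 TPM in LOY and 18670 to 23440 TPM in control libraries. Summed markers of neutrophils were at 83.2 to 100.2 TPM in LOY and 43.1 to 85.3 TPM in control libraries. Those of B cells were at 39.6 to 46.6 TPM in LOY and 51.5 to 77.1 TPM in control libraries, and those of cardiomyocytes at 81.0 to 183.5 TPM in LOY and 64.3 to 121.7 TPM in control libraries. Endothelial, fibroblast, dendritic, T and NK cell markers each summed to at most 39.0 TPM. The part of these cells in the results below was not tested, and in bulk RNA fewer cells of a type and less RNA per cell cannot be told apart.

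Summed over the 100 genes, the ligases held 4454, 4388, 4051 and 4345 TPM in LOY replicates 1 to 4, against 4021, 3508, 3205 and 3912 TPM in control replicates 1 to 4. Every LOY library was above every control library, LOY replicate 3 and control replicate 1 by a small margin. Control replicate 3 had the lowest value of all 8 libraries in 57 of the 100 genes. Control replicate 1 was the highest control library in 58. Such counts were made for the members only, so they cannot be read as particular to the ligases.

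The mean level of a member had a median of 23.0 TPM, against 17.7 TPM for all 11725 tested genes. It was 100 TPM or more in 8 members, and 10 TPM or more in 73. Rnf130, a membrane ligase whose protease-associated domain faces the lumen of endosomes, was the most abundant, at 376.8 ± 52.0 TPM in LOY and 376.3 ± 17.7 TPM in control libraries (SD, n = 4 each). Its log2 fold change was -0.0065 (95% interval -0.28 to 0.26). Next came Rnf114 at 219.4 ± 22.7 TPM in LOY and 200.3 ± 33.4 TPM in control, Trim47 at 197.7 ± 58.9 and 173.2 ± 43.8 TPM, and Rnf187, a coactivator of AP-1, at 163.5 ± 18.7 and 155.9 ± 12.3 TPM (SD, n = 4; LOY, then control). Rnf13 and Rnf167, relatives of Rnf130 in endosomes and lysosomes, were at 139.5 ± 18.8 and 112.7 ± 25.2 TPM in LOY, and 130.7 ± 11.2 and 104.8 ± 11.2 TPM in control libraries. Of the 10 most abundant members, which held 40.4% of the summed level, 0 had a limma p under 0.05 before adjustment. At that p, 19.3% of all tested genes were higher in LOY and 3.45% lower. Of the members ranked 1 to 50 by mean TPM, 15 were higher at that p, and of those ranked 51 to 100, 17 were. Just inside the limit of 1 TPM lay Trim54 and Trim6 (means of 1.04 and 1.22 TPM), and just outside it Rnf24 and Rnf17 (0.984 and 0.724 TPM). Of the 58 matching genes below the limit, 11 were listed at 0 in all 8 libraries.

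Of the 100 genes, 0 passed in limma with Benjamini-Hochberg adjustment over all 11725 genes, as did 0 of all genes tested (0.0%). At an unadjusted p under 0.05, 32 members were higher in LOY libraries and 0 lower, while 19.3% of all tested genes were higher and 3.45% lower. The adjusted p of these 32 lay between 0.148 and 0.215, and their log2 fold changes, on the log2(TPM + 1) scale, between 0.30 and 1.76. The LOY and control libraries did not overlap in 12 members that were higher and 1 that was lower in LOY, against 6.76% and 2.61% of all tested genes. The median log2 fold change was 0.29 over the members and 0.16 over all tested genes. Median-of-ratios scaling moved the median of all genes to 0.00053, and that of the members to 0.12. With TPM as deposited the median was 0.23 over the 59 Rnf genes, 0.31 over the 38 Trim genes and 0.77 over the 3 Znrf genes. The median half-width of a member's 95% interval was 0.41.

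**Figure D1:**
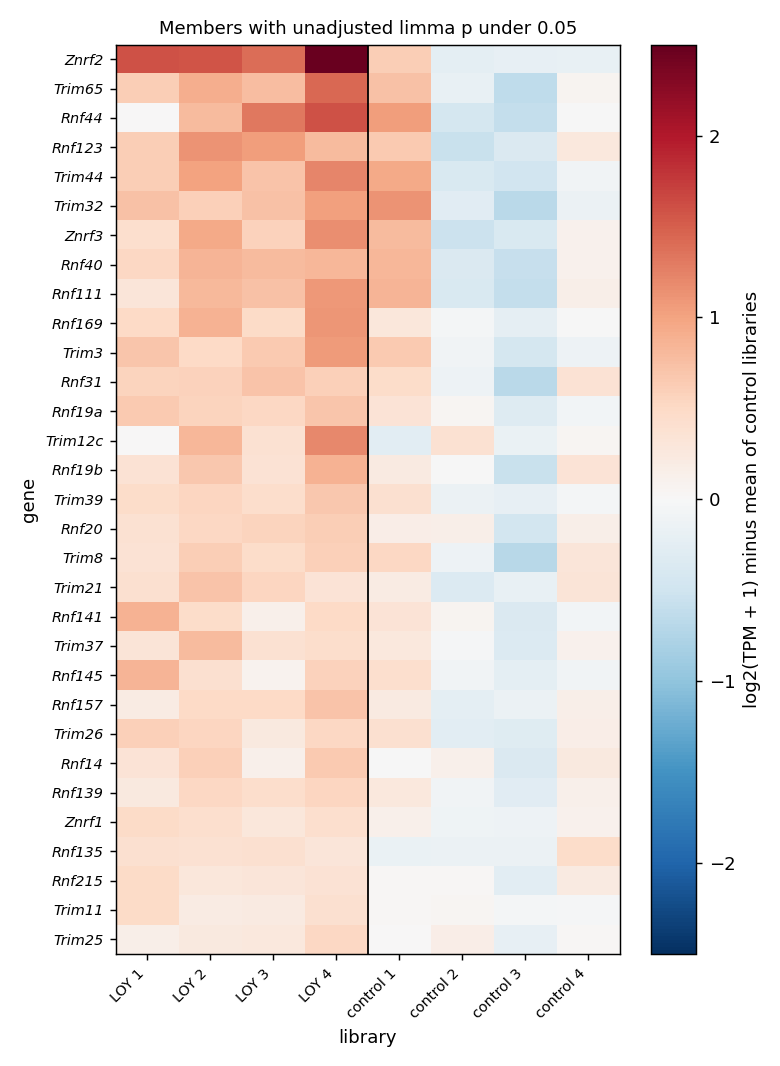
Members with an unadjusted limma p under 0.05, 31 of the 32, ordered by log2 fold change. Colour gives log2(TPM + 1) minus the mean of the control libraries, with the LOY libraries left of the line and the control libraries right of it. Znrf2 stands out in all 4 LOY libraries, and control replicate 1 resembles the LOY libraries in Rnf44, Trim44 and Trim32.

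The 3 Znrf genes all had higher means in LOY libraries. Znrf2 (chromosome 6, 54816916 to 54893500, GRCm38) encodes a small membrane-anchored ligase of endosomes and lysosomes. It held 16.0, 15.9, 13.98 and 30.4 TPM in LOY replicates 1 to 4, against 7.71, 3.78, 3.95 and 4.01 TPM in control replicates 1 to 4. The lowest LOY library was thus above the highest control library, control replicate 1, and LOY replicate 4 was far above the other LOY libraries. The ratio of means was 3.93 (log2 fold change 1.76, SE 0.27, 95% interval 1.15 to 2.37; limma adjusted p = 0.148). Znrf2 ranked 4 by p among all 11725 genes, and it had the largest fold change and the smallest p of the members under all 20 alternatives. Its log2 fold change under them ran from 1.26 to 2.03 and its limma adjusted p from 0.00960 to 0.391, passing in 3. In the authors' deposited table its log2 fold change was 1.65 (SE 0.28, adjusted p = 3.11e-05).

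Znrf1 (chromosome 8, 111536097 to 111626030), the closest relative of Znrf2 and known to act on caveolin-1 in Toll-like receptor signalling, held 28.1 to 32.7 TPM in LOY and 21.0 to 25.4 TPM in control libraries. The groups did not overlap, and each group was narrow. Its log2 fold change was 0.40 (SE 0.12; limma adjusted p = 0.179), and -0.038 once each library had been corrected for a trend on the length and GC content of transcripts. Znrf3 (chromosome 11, 5276324 to 5444847), which removes Frizzled receptors of the Wnt pathway from the cell surface, held 1.56, 2.71, 1.86 and 3.27 TPM in LOY replicates 1 to 4, against 2.34, 0.325, 0.477 and 1.08 TPM in control replicates 1 to 4. Here control replicate 1 lay inside the LOY range and the other control libraries below it. The log2 fold change was 0.77 (SE 0.30; limma adjusted p = 0.188), and 1.04 without control replicate 1 (limma adjusted p = 0.0233).

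**Figure D2:**
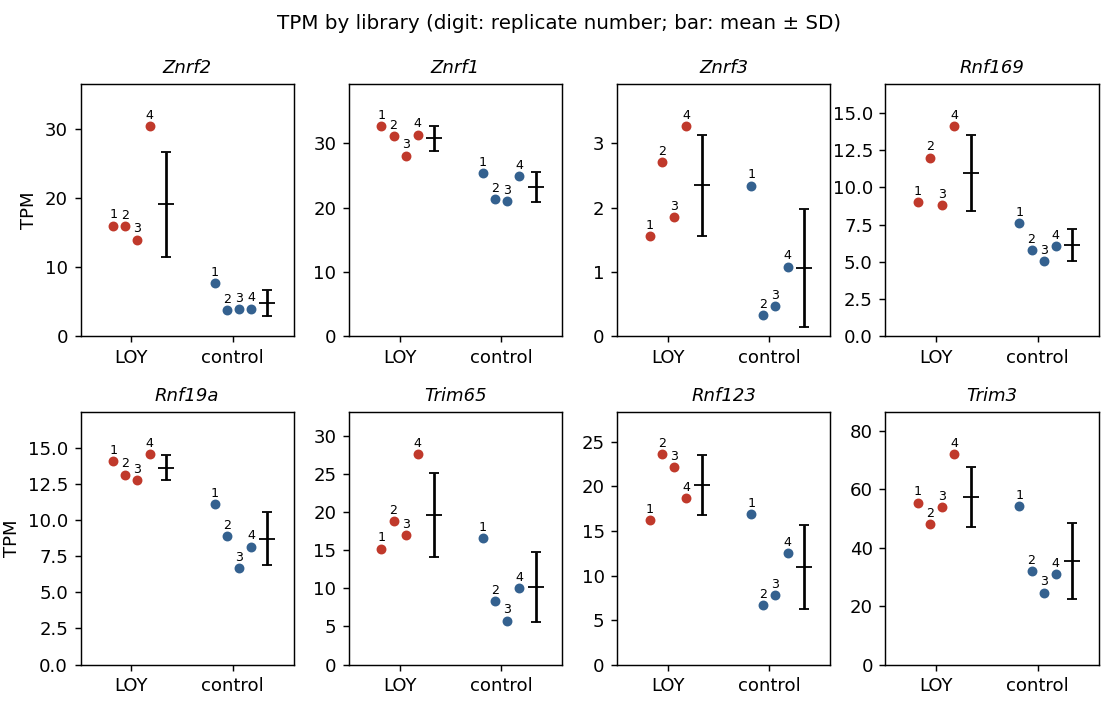
TPM of Znrf2, Znrf1, Znrf3, Rnf169, Rnf19a, Trim65, Rnf123 and Trim3 in each library, with replicate numbers beside the points and bars for the mean and SD of 4 libraries, LOY left and control right. Znrf2 holds 13.98 to 30.4 TPM in LOY and 3.78 to 7.71 TPM in control libraries. Control replicate 1 is the highest control library in all 8 panels.

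The 120 bases before the start site of Znrf2 are shown because it had the largest fold change of the members. They were read from the RefSeq table on GRCm38.p6, 5′ to 3′ on the plus strand, from chr6:54816796-54816915, with no letters in capitals because no motif is marked.
Znrf2: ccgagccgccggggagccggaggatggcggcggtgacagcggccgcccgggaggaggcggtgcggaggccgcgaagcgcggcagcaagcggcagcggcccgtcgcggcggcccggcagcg
Their GC content was 83.3%.

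Among ligases that act on chromatin and at DNA breaks, 4 of 9 were higher in LOY libraries at an unadjusted p under 0.05 and 0 lower, against 19.3% and 3.45% of all tested genes. Their median log2 fold change was 0.29, and 0.083 with the length and GC correction. Rnf169, which binds ubiquitinated chromatin at breaks and limits 53BP1 there, held 8.99, 12, 8.80 and 14.1 TPM in LOY replicates 1 to 4, against 7.62, 5.80, 5.05 and 6.04 TPM in control replicates 1 to 4. The groups did not overlap (log2 fold change 0.74, SE 0.19; limma adjusted p = 0.179). Rnf168, which builds the ubiquitin marks that Rnf169 reads, was at 20.3 ± 3.07 TPM in LOY and 22.5 ± 2.94 TPM in control libraries (SD, n = 4), with a log2 fold change of -0.14 (SE 0.15). The other 3 genes higher at that p were Rnf20, Rnf40 and Rnf111, a ligase of TGF-beta signalling. Rnf20 and Rnf40 form a pair that puts a single ubiquitin on histone H2B. Rnf20 held 16.6 to 19.8 TPM in LOY and 8.85 to 14.3 TPM in control libraries, without overlap. Rnf40 held 20.6 to 26.0 TPM in LOY libraries, against 25.7, 10.8, 9.07 and 15.2 TPM in control replicates 1 to 4, so control replicate 1 lay inside the LOY range. Rnf2, the catalytic subunit of the Polycomb complex PRC1, was at 40.0 ± 4.92 TPM in LOY and 34.3 ± 5.02 TPM in control libraries (log2 fold change 0.22, SE 0.14; limma adjusted p = 0.362).

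RBR ligases, which carry the ubiquitin themselves before passing it on, had the highest median of the RNF groups, 0.51 over 6 genes. It was 0.24 with the length and GC correction and 0.33 with median-of-ratios scaling. Of the 6, 4 had higher levels in LOY libraries at a limma p under 0.05 before adjustment, against 19.3% of all tested genes. Rnf19a (chromosome 15, 36239933 to 36283147) held 14.1, 13.1, 12.7 and 14.6 TPM in LOY replicates 1 to 4, against 11.1, 8.88, 6.69 and 8.15 TPM in control replicates 1 to 4. Its groups did not overlap (log2 fold change 0.61, SE 0.17; limma adjusted p = 0.179). Its relative Rnf19b was at 65.8 ± 11.9 TPM in LOY and 44.8 ± 11.3 TPM in control libraries (SD, n = 4), and its lowest LOY library, at 56.1 TPM, was just above its highest control library, at 55.4 TPM. Rnf31, or HOIP, the catalytic subunit of the complex that builds linear ubiquitin chains in NF-kB signalling, held 37.8, 38.0, 42.4 and 38.7 TPM in LOY replicates 1 to 4, against 34.9, 23.1, 15.5 and 32.6 TPM in control replicates 1 to 4. The LOY libraries were close together and above the wide control range (log2 fold change 0.61, SE 0.22; limma adjusted p = 0.182). Rnf31 overlaps the more abundant Irf9 on the same strand (141.0 TPM), so part of its reads may be hard to assign.

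Membrane ligases with a protease-associated domain, the group of Rnf130 and Rnf13, had a median log2 fold change of 0.13 over 8 genes, which turned to -0.023 with median-of-ratios scaling. Of these, 2, Rnf215 and Znrf3, were higher in LOY at an unadjusted p under 0.05, close to the 19.3% of all tested genes. Rnf215 held 33.5 to 38.5 TPM in LOY and 22.6 to 32.1 TPM in control libraries, without overlap. Rnf128, or GRAIL, known for its part in T cell anergy, was at 3.06 ± 1.07 TPM in LOY and 2.90 ± 0.848 TPM in control libraries (SD, n = 4), and overlapped. Among 13 other ligases of the endoplasmic reticulum, Golgi and endosomes, 4 were higher in LOY at that p, Znrf2, Znrf1, Rnf139 and Rnf145, against the same 19.3%. Their median was 0.31, and 0.11 with the length and GC correction. Rnf5, which acts on misfolded proteins at the endoplasmic reticulum, was at 96.1 ± 11.9 TPM in LOY and 102.2 ± 3.70 TPM in control libraries.

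Of 15 other cytosolic RING genes, 2 were higher in LOY at an unadjusted p under 0.05, a smaller share than the 19.3% of all tested genes. Their median of 0.23 was 0.034 with the length and GC correction and 0.063 with median-of-ratios scaling. One of them, Rnf44, held 7.02, 12.7, 18.8 and 23.0 TPM in LOY replicates 1 to 4, against 15.4, 4.84, 4.22 and 6.85 TPM in control replicates 1 to 4. LOY replicate 1 and control replicate 1 each lay inside the range of the other group. Rnf7, the RING subunit of cullin 5 ligases, was the member whose groups did not overlap in the other direction. It held 58.1, 57.9, 63.3 and 60.3 TPM in LOY replicates 1 to 4, against 65.4, 70.5, 69.0 and 64.8 TPM in control replicates 1 to 4. All LOY libraries were below all control libraries, by a small margin (log2 fold change -0.17, SE 0.098; limma adjusted p = 0.310), and the log2 fold change was -0.0036 with the length and GC correction. Rnf123, outside these lists, which targets the cell cycle inhibitor p27 and processes the NF-kB precursor p105, held 16.2, 23.6, 22.2 and 18.7 TPM in LOY replicates 1 to 4, against 16.9, 6.67, 7.80 and 12.5 TPM in control replicates 1 to 4. Control replicate 1 was above LOY replicate 1 only, and the other control libraries were below every LOY library (log2 fold change 0.89, SE 0.26; limma adjusted p = 0.179).

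Among 16 TRIM genes of antiviral and innate immune defence, all 16 had log2 fold changes above 0, as did 68.2% of all tested genes, and 6 were higher in LOY at an unadjusted p under 0.05, against 19.3%. The count above 0 was 12 with quantile normalization and also with median-of-ratios scaling, where Trim12a, Trim27, Trim5 and Trim56 were below 0, and the share of all tested genes above 0 was 48.0% and 50% under these scalings. It was 11 with the length and GC correction, where Trim25 was below 0 as well, against 48.5% of all genes, and 15 with library weights, against 66.9%. The median of the 16 was 0.36 as deposited, 0.15 with the length and GC correction and 0.18 with median-of-ratios scaling. Trim65, a ligase for the viral RNA sensor MDA5, held 15.2, 18.8, 17.0 and 27.6 TPM in LOY replicates 1 to 4, against 16.5, 8.30, 5.77 and 10.1 TPM in control replicates 1 to 4. Control replicate 1 again lay above the lowest LOY library (log2 fold change 0.94, SE 0.28; limma adjusted p = 0.179, and 0.0144 without control replicate 1). Trim65 overlaps its neighbour Trim47 on the same strand, and Trim47 is more abundant. Trim21, a cytosolic receptor for antibodies, held 62.1, 77.0, 67.8 and 59.5 TPM in LOY replicates 1 to 4, against 54.2, 36.3, 40.9 and 58.6 TPM in control replicates 1 to 4, so the groups did not overlap (log2 fold change 0.50, SE 0.17; limma adjusted p = 0.181). Trim25, which activates the RNA sensor RIG-I, was at 89.4 ± 10.6 TPM in LOY and 72.5 ± 7.37 TPM in control libraries (log2 fold change 0.30, SE 0.12; limma adjusted p = 0.202), and -0.082 with the length and GC correction. Trim14, an adaptor of antiviral signalling, was at 138.6 ± 21.3 TPM in LOY and 109.8 ± 18.3 TPM in control libraries, and Trim8, known for NF-kB signalling, at 81.3 ± 6.56 and 59.4 ± 20.4 TPM (SD, n = 4; LOY, then control).

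Of these genes, 7 lie with Trim6 in one stretch of chromosome 7, 104218793 to 104507849, which holds 8 members. Trim30d held 40.1, 96.0, 91.2 and 73.4 TPM in LOY replicates 1 to 4, against 47.3, 50.03, 48.6 and 76.0 TPM in control replicates 1 to 4. LOY replicate 1 was the lowest of all 8 libraries and control replicate 4 stood among the higher LOY libraries. Trim30c was again lowest among LOY libraries in replicate 1 and highest among control libraries in replicate 4, with 18.5, 40.9, 36.3 and 25.5 TPM in LOY replicates 1 to 4, against 20.4, 16.4, 21.3 and 31.7 TPM in control replicates 1 to 4. Trim30b and Trim34a had these extremes too. LOY replicate 1 was the lowest LOY library in 6 of the 8 genes, and in 39 of all 100 members. On chromosome 11, Rnf213, a very large ligase induced by interferon and known to ubiquitinate bacterial lipopolysaccharide, held 46.3, 97.3, 98.4 and 72.6 TPM in LOY replicates 1 to 4, against 60.6, 36.6, 45.3 and 77.3 TPM in control replicates 1 to 4. The adjusted p was 0.381 for Trim30d, 0.366 for Trim30c and 0.284 for Rnf213 (limma), with log2 fold changes of 0.38, 0.39 and 0.51. The Trim30 genes are close paralogs of each other, as are Trim12a, Trim12c and Trim5, so the split of reads between them, and with it each level, is uncertain.

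**Figure D3:**
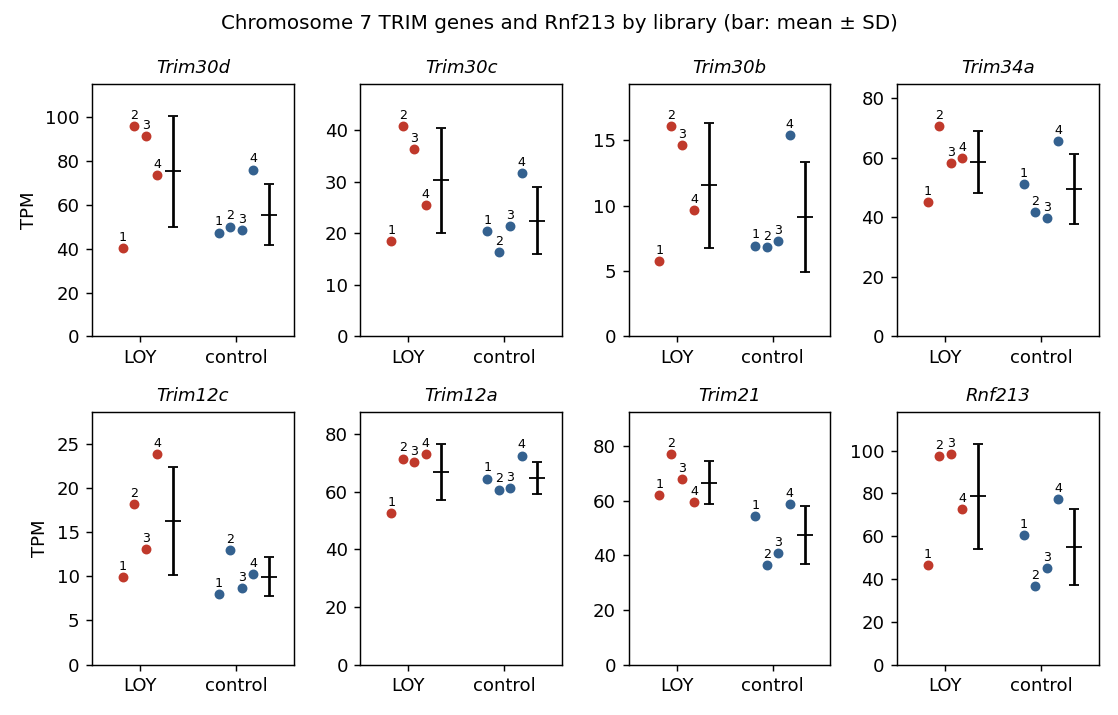
TPM of 6 TRIM genes of the chromosome 7 stretch, of Trim21 and of Rnf213 in each library, with replicate numbers and bars for the mean and SD of 4 libraries, LOY left and control right. In Trim30d, Trim30c, Trim30b, Trim34a and Rnf213 LOY replicate 1 is the lowest LOY library and control replicate 4 the highest control library.

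The promoter table held 76 of the 100 genes. In windows from 250 bases before to 50 after a start site, searched on both strands, the interferon response element (GAAA, any 2 bases, GAAA) was found in 11 of these 76 genes (14.5%), against 3.99% of all 27025 genes in the table and 4.20% of the tested genes in it. The 11 were Rnf121, Rnf146, Rnf20, Trim12a, Trim12c, Trim2, Trim21, Trim26, Trim30d, Trim34a and Trim5. Stretches of 30 bases around the match, on the strand of the gene, are shown for the TRIM genes of immune defence. The first match is in capitals. In Trim21 and Trim26 a second match starts inside the capitals and runs on into the small letters. Capitals that begin with TTTC show the element on the other strand. They lie on GRCm38.p6 at chr7:102565450-102565479, chr7:104288136-104288165, chr7:104315466-104315495, chr7:104353359-104353388, chr7:104507871-104507900, chr7:104244457-104244486 and chr17:36836976-36837005, in the order listed, the first 5 on the minus strand and the last 2 on the plus strand.
Trim21: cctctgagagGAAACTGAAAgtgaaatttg
Trim5: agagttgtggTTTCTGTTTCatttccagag
Trim12a: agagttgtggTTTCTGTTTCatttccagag
Trim12c: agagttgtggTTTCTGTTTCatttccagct
Trim30d: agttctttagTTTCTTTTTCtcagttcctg
Trim34a: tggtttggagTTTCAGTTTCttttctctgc
Trim26: ccgcttccgaTTTCACTTTCcttttctcgg
Trim5 and Trim12a share all 30 bases and Trim12c shares 28 of 30 with each, so these are not independent matches. The median log2 fold change was 0.30 over the 11 genes with a match and 0.26 over the 65 without one, and 4 of the 11 and 18 of the 65 were higher in LOY at an unadjusted p under 0.05, against 19.3% of all tested genes.

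Other motifs were searched in the same windows. The members were chosen by level, so their shares are set against the 8859 tested genes in the table and then against all genes in it. The heat shock element (GAA, any 2 bases, TTC, any 2 bases, GAA), the NF-kB motif (GGG, any 2 bases, TTTCC) and the lysosomal CLEAR motif TCACGTGA were found in 0 of the 76 members, against 0.598%, 2.0% and 2.27% of the tested genes and 0.662%, 1.89% and 1.12% of all genes. The CRE (TGACGTCA) was found in 2.63% of the members, against 3.76% of the tested genes and 2.03% of all. The NRF1 motif was found in 2.63%, against 2.55% and 1.07%, and the YY1 motif in 3.95%, against 2.0% and 0.755%. The ETS motif CCGGAAGT was found in 6.58%, against 10% and 4.31%. The CCAAT box (CCAAT) was found in 48.7%, against 43.6% and 41.1%, the TATA box (TATAAA) in 14.5%, against 8.78% and 15.7%, and the GC box GGGGCGGGG in 19.7%, against 24.5% and 12.9%. For the CRE, the ETS motif, the TATA box and the GC box the members thus lay on opposite sides of the shares in the tested genes and in all genes. Znrf2 held a CCAAT box and none of the other motifs, and Rnf169 held the YY1 motif and a TATA box.

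Among TRIM proteins with an NHL domain, a propeller that binds RNA or proteins, Trim3 held 55.5, 48.2, 54.0 and 72.1 TPM in LOY replicates 1 to 4, against 54.2, 32.0, 24.6 and 31.1 TPM in control replicates 1 to 4. Control replicate 1 lay inside the LOY range and the other control libraries below it (log2 fold change 0.72, SE 0.22; limma adjusted p = 0.179). Trim32, mutated in a muscular dystrophy in humans, held 4.25, 3.78, 4.21 and 5.41 TPM in LOY replicates 1 to 4, against 5.83, 1.57, 0.967 and 1.84 TPM in control replicates 1 to 4. Here control replicate 1 was above every LOY library, and the other control libraries were below them all. Without control replicate 1 its log2 fold change was 1.15 (limma adjusted p = 0.0120), against 0.77 with all 8 libraries (limma adjusted p = 0.209).

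The 3 transcription regulators of the TIF1 group had log2 fold changes of 0.015 to 0.27, and 0 of them was above 0 with the length and GC correction. Trim28, or KAP1, the corepressor that KRAB zinc finger proteins recruit, was at 30.8 ± 2.37 TPM in LOY and 27.8 ± 2.41 TPM in control libraries (95% interval of the log2 fold change -0.12 to 0.41). Trim33 and Trim24 were at 4.96 ± 1.32 and 3.95 ± 0.636 TPM in LOY, and 3.98 ± 1.31 and 4.10 ± 1.97 TPM in control libraries (SD, n = 4). Of the 14 other TRIM genes, Trim39, Trim44, Trim11 and Trim37 were higher in LOY at an unadjusted p under 0.05, against 19.3% of all tested genes. Trim39 held 10.3 to 12.4 TPM in LOY and 6.25 to 10.1 TPM in control libraries, without overlap. Trim44 held 15.2, 20.3, 16.4 and 23.7 TPM in LOY replicates 1 to 4, against 19.6, 7.13, 6.56 and 8.98 TPM in control replicates 1 to 4. Of the muscle TRIM genes, Trim54 alone passed the limit of 1 TPM, at 1.12 ± 0.723 TPM in LOY and 0.970 ± 0.467 TPM in control libraries, and Trim63 and Trim55, ligases of cardiac and skeletal muscle, lay below it.

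Control replicate 1 decided many of these overlaps. In 24 members the LOY libraries were all above the control libraries once it was left out, and not with it. Leaving out LOY replicate 1 instead did this in 11 members. Without it 36 members were higher without overlap, against 24.9% of all tested genes. With all 8 libraries these were 12 members and 6.76% of all tested genes, so the rise was not particular to the members. Without it 23 of the 100 genes passed in limma with Benjamini-Hochberg adjustment, all higher in LOY, against 14.9% of all tested genes that passed as higher. Among them were Znrf2 and Trim44 (adjusted p = 0.0110 each), Trim32 (0.0120), Trim3 (0.0121) and Rnf40 (0.0125). Without LOY replicate 2, the library with intermediate Y transcripts, 0 members passed and 21 were higher at an unadjusted p under 0.05, against 11.4% of all tested genes. The log2 fold change of Znrf2 was then 1.82 (limma adjusted p = 0.189).

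Members with longer transcripts had larger fold changes, as had all genes. The longest annotated transcript had a median length of 3746 bases in the members and 3180 bases in all tested genes. Across the 100 members Spearman's rho of the log2 fold change and this length was 0.45, and 0.49 across 11663 tested genes with a length, a description across genes that are not independent replicates and share the libraries. Of the 50 members at or above 3746 bases 22 were higher in LOY at an unadjusted p under 0.05, and of the 4584 tested genes at or above this length 34% were. Of the 50 shorter members 10 were higher, and of the 7079 shorter genes 9.79%. With the length and GC correction, 11 members were higher and 1 was lower at that p (limma), against 7.57% and 7.73% of all tested genes, and the median log2 fold change was 0.067 over the members and -0.011 over all. The 11 were Znrf2, Rnf169, Rnf19a, Rnf123, Trim65, Trim3, Trim21, Trim44, Rnf19b, Rnf215 and Rnf135. For Znrf2 this correction gave 1.42 on the log2 scale (limma adjusted p = 0.0988), and for the next, Trim65, 0.60.

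**Figure D4:**
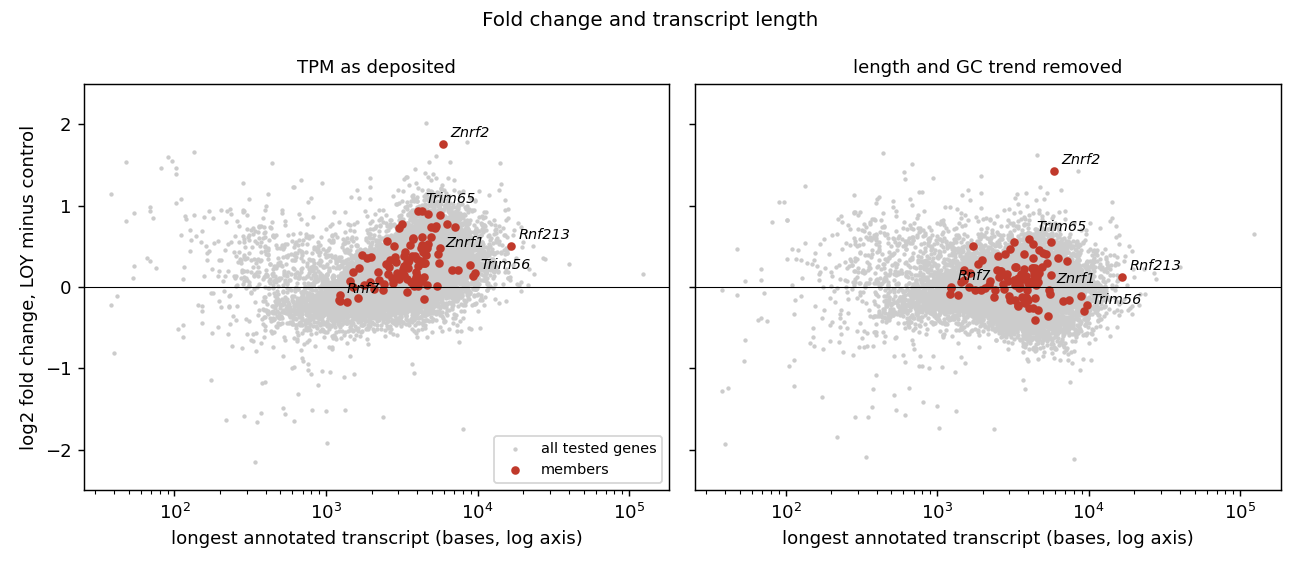
Log2 fold change, LOY minus control, against the length of the longest annotated transcript (log axis), for all tested genes in grey and the members in red, with TPM as deposited (left) and after correction for length and GC (right). The 7 tested genes beyond 2.5 on the left are not drawn. Znrf2 lies above the other members in both panels, at 1.76 and 1.42.

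In the authors' deposited table, 6 of the 100 genes had an adjusted p under 0.05, all higher in LOY, against 3.82% of its 16072 genes with an adjusted p. Unlike the members, those 16072 genes were not limited to a mean of 1 TPM or more, so the sets differ in level. They were Znrf2, Rnf169 (log2 fold change 0.98, SE 0.28), Znrf3 (1.22, SE 0.35), Rnf157 (0.97, SE 0.28), Trim65 (1.03, SE 0.30) and Trim44 (0.92, SE 0.29). The adjusted p in the authors' deposited table was 0.0296, 0.0313, 0.0328, 0.0341 and 0.0474 for the last 5. In the TPM values Rnf157 was at 6.36 ± 1.04 TPM in LOY and 4.28 ± 0.826 TPM in control libraries (SD, n = 4), with a limma adjusted p of 0.184.

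Other genes of the ubiquitin pathway were set beside the members. Of all tested genes 19.3% were higher in LOY at an unadjusted limma p under 0.05 and 3.45% lower. Of those at or above 3746 bases 34% were higher. Of 24 ligases of the HECT type, 14 were higher at that p and 0 lower, with a median log2 fold change of 0.50. Their transcripts were long, with a median of 5472 bases, and the median was 0.17 with the length and GC correction. All 24 were above 0 as deposited, 20 with quantile normalization, 22 with median-of-ratios scaling and 16 with that correction, against 68.2%, 48.0%, 50% and 48.5% of all tested genes. Herc4 was at 46.4 ± 8.33 TPM in LOY and 29.3 ± 6.65 TPM in control libraries, and Hectd4 at 3.35 ± 0.881 and 1.49 ± 0.741 TPM (SD, n = 4; LOY, then control; limma adjusted p = 0.179 for both). Of 28 RING ligases under other names, 15 were higher and 0 lower, against the same 19.3% higher and 3.45% lower. Their median of 0.47 was 0.23 with the length and GC correction and 0.29 with median-of-ratios scaling. They included Mdm4, the partner of the p53 ligase Mdm2, at 32.9 ± 2.81 TPM in LOY and 20.0 ± 3.66 TPM in control libraries (limma adjusted p = 0.179), and Arih2, an RBR ligase of cullin 5, at 58.7 ± 4.16 and 40.8 ± 6.83 TPM. Of 33 conjugating enzymes 5 were higher and 0 lower, smaller shares than 19.3% and 3.45%. Their median was -0.0033, and -0.088 with the length and GC correction and -0.18 with median-of-ratios scaling. The 5 were led by Ube2h (24.4 ± 1.93 TPM in LOY and 16.2 ± 2.70 TPM in control libraries) and Ube2g2 (87.6 ± 16.6 and 63.4 ± 4.87 TPM). Of 9 activating enzymes and their partners 3 were higher, Uba6, Nae1 and Uba7, against 19.3% of all tested genes. Of 5 partners and opponents of linear chains 3 were higher at an unadjusted p under 0.05, against the same 19.3%. These were the deubiquitinases Tnfaip3 and Cyld and the Rnf31 partner Rbck1, which is also counted among the 28 RING ligases. Cyld was at 31.0 ± 3.83 TPM in LOY and 20.9 ± 5.14 TPM in control libraries (limma adjusted p = 0.179). The other Rnf31 partner, Sharpin, was at 57.7 ± 3.93 TPM in LOY and 57.8 ± 5.42 TPM in control libraries, and Otulin, a deubiquitinase for linear chains, at 68.9 ± 6.05 TPM in LOY and 74.3 ± 5.85 TPM in control libraries (SD, n = 4), with log2 fold changes of -0.0014 and -0.11.

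Of the alternatives, quantile normalization left 14 and median-of-ratios scaling 15 members higher at an unadjusted p under 0.05, against 9.74% and 10.8% of all tested genes. Without control replicate 3, which was lowest in most members, 15 were higher at that p, against 9.93%. With limma's library weights, which gave LOY replicate 1 the lowest weight and control replicate 1 the next, 50 were higher, against 33.6%, and 33 passed after Benjamini-Hochberg adjustment in limma, against 23.5%.

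**Figure D5:**
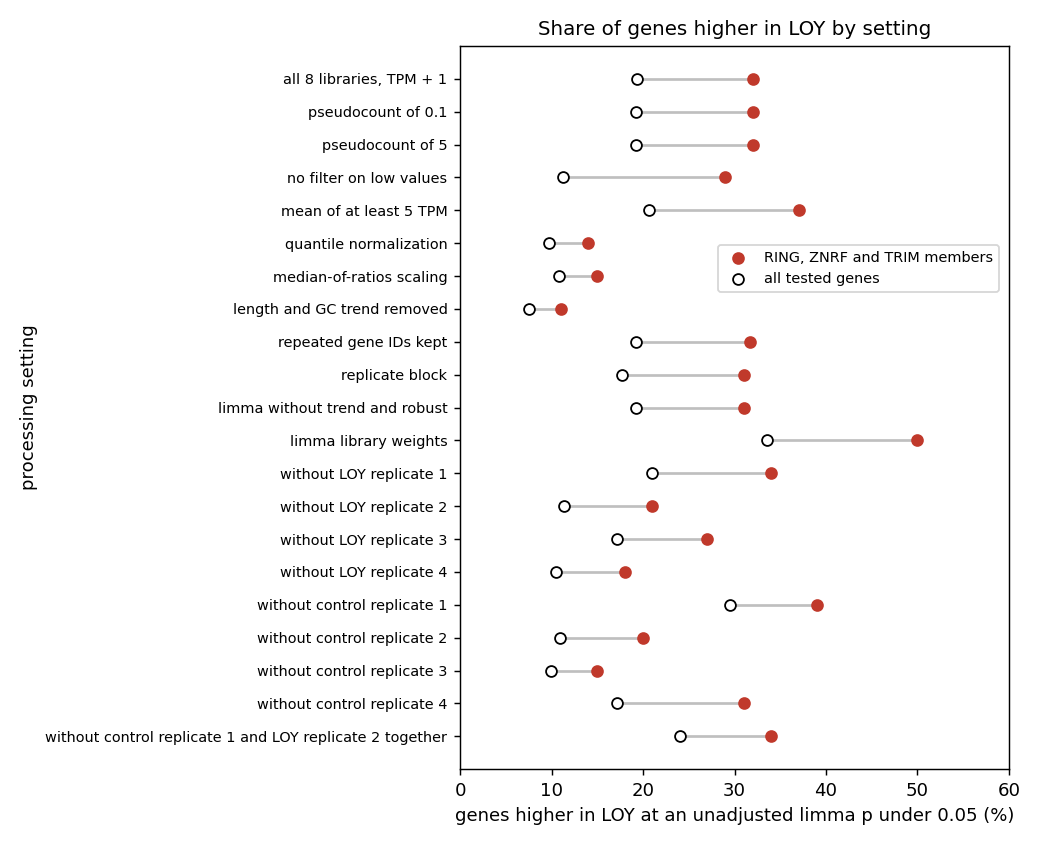
Share of genes higher in LOY at an unadjusted limma p under 0.05, in percent, for the RING, ZNRF and TRIM members (red) and all tested genes (open circles), with all 8 libraries and under the 20 alternatives. The members are at 32.0% and all tested genes at 19.3% with all 8 libraries, and at 14% and 9.74% after quantile normalization.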

How the data were processed

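The authors deposited a TPM value for each gene and library, in columns named TPM_sum per the file headers. Columns named WT and KO were read as control and LOY and their numbers as replicate numbers, from the names alone. The submitters' processing notes name these tools: bcl2fastq (2.17), Trimmomatic (0.36), STAR (2.5.2b) and featureCounts from Subread (1.5.2), with the builds GRCm38 and mm10; how the TPM were made is not stated there. TPM keep no depth, so no counting interval is given. The SMART-Seq v4 kit does not mark strand, which leaves reads of genes that overlap in opposite directions unassigned between them. Rnf123 and Rnf167, for example, overlap more abundant genes of the opposite strand, at 25.7 and 143.0 TPM. The authors' deposited table also holds their log2 fold change with its error, a score, p-values with adjusted p, and a mean signal per gene; that score and mean were not used.

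Genes averaging 1 TPM or more were kept and 156 repeated IDs removed, which left 11725. Two-sided limma (version 3.58.1, R 4.3.3, with its trend and robust settings) compared log2(TPM + 1), a scale that understates changes of low genes, with Benjamini-Hochberg adjustment over all tested genes and a threshold of 0.05. The fit was tested on simulated data with noise drawn independently for each gene and library. That test thus could not cover deviations that a library shares across genes. The length and GC correction took, in each library, the difference of log2(TPM + 1) from the mean of the gene over the libraries. A spline fit of this difference on the GC content and length of the longest transcript was then subtracted. Gene coordinates and lengths came from GENCODE M21 on GRCm38 (35947 of 36708 IDs matched), promoters from RefSeq (GRCm38.p6). The members and lists were chosen with earlier results of these data known, and the promoter motifs after the values were seen. The rule for named genes took all Znrf members, the 10 higher and 6 lower members with the smallest p, the 8 most abundant, the 2 with the smallest p of each list, those nearest the limit, those past 0.05 in the authors' deposited table and 15 preset genes. Rnf40, Rnf111, Rnf139, Rnf145, Rnf135, Trim11, Trim37, Rbck1, Sharpin, Otulin, Uba7, the genes of the chromosome 7 stretch and those with a motif were named beyond that rule. MARCH ligases and 1 gene that the symbols match were not analysed here, and some results on single genes are not reported here.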

Additional observations from a re-analysis of the deposited data

Results flagged for a closer look

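Among 43 named members, 86 groups of 4 libraries were examined for a single deviating library, and 7 had one (Dixon's test, critical value 0.829); chance gives about 1 in 20 groups. Control replicate 1 was the deviating library in 4 of the 7, at 7.71 TPM for Znrf2, 26.9 TPM for Rnf168, 7.04 TPM for Trim24 and 5.94 TPM for Trim33, in each case above the other control libraries. Znrf2 also had LOY replicate 4 above the other LOY libraries, at 30.4 TPM. Rnf20 was low in control replicate 3, at 8.85 TPM, and Trim6 high in control replicate 4, at 2.09 TPM. The part of these libraries in the results was not tested beyond leaving each out.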

How the results depend on the processing

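All values are log2 fold changes from limma or counts of members, of which 32 were higher in LOY at an unadjusted p under 0.05, 0 lower, and 0 past the adjusted threshold with all 8 libraries. The share of all tested genes that was higher is given in brackets and moved with the members. The count higher was 14 under quantile normalization (9.74%), 15 under median-of-ratios scaling (10.8%), 11 with the length and GC correction (7.57%) and 50 with library weights (33.6%). With 1 library left out it was 15 to 39: 15 without control replicate 3 (9.93%), 18 without LOY replicate 4 (10.5%), 39 without control replicate 1 (29.5%), 20 without control replicate 2 (10.9%) and 21 without LOY replicate 2 (11.4%), against 19.3% with all libraries. The count lower was 4 under quantile normalization, 2 under median-of-ratios scaling, 1 with the length and GC correction and 1 with library weights. In the same order, 9.7%, 11%, 7.73% and 7.2% of all tested genes were lower, so the members lay below these shares. The count past the adjusted threshold was 33 with library weights, 0 to 23 with 1 library left out (23 without control replicate 1, 0 in the other 7 cases), and 7 without control replicate 1 and LOY replicate 2. Of all tested genes 23.5% passed as higher with library weights, 14.9% without control replicate 1, and 4.71% without control replicate 1 and LOY replicate 2. The count of members whose groups did not overlap was 13 (6.76% of all genes higher, 2.61% lower), 7 with the length and GC correction (3.66% and 3.67%), and 13 to 37 with 1 library left out: 25 without LOY replicate 1 (15.5% and 6.12%), 20 without LOY replicate 3 (12.4% and 4.39%) and 37 without control replicate 1 (24.9% and 4.66%). It was 39 without control replicate 1 and LOY replicate 2 (26.3% and 5.9%). The median log2 fold change of 0.29 was 0.067 with the length and GC correction and 0.18 to 0.32 with 1 library left out. Deviations of LOY and control libraries from their group means correlated at -0.15 to 0.039 for the same number, and at -0.37 to 0.35 for different numbers. With 4 libraries a group, these correlations cannot tell whether the numbers mark pairs. With a replicate block 31 members were higher at an unadjusted limma p under 0.05, against 17.7% of all tested genes. In that fit 0 members passed after adjustment, as did 0.0% of all tested genes.

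Small fold changes changed sign. Under median-of-ratios scaling they were -0.043 for Rnf114, -0.088 for Rnf128, -0.094 for Rnf13, -0.096 for Rnf167, -0.12 for Rnf187, -0.084 for Rnf220, -0.12 for Trim24, -0.032 for Trim28, -0.0019 for Trim47, -0.0092 for Trim54, -0.084 for Trim6. With the length and GC correction they were -0.11 for Rnf114, -0.027 for Rnf128, -0.13 for Rnf13, 0.085 for Rnf130, -0.039 for Rnf187, -0.16 for Rnf220, -0.26 for Trim24, -0.082 for Trim25, -0.17 for Trim28, -0.11 for Trim33, -0.20 for Trim6, -0.038 for Znrf1. Under quantile normalization they were -0.18 for Rnf128, 0.030 for Rnf130, -0.22 for Trim24, -0.037 for Trim28, -0.080 for Trim54, -0.16 for Trim6. With library weights they were -0.23 for Rnf128, -0.018 for Rnf167, -0.0018 for Trim6. Without control replicate 1 and LOY replicate 2 they were -0.033 for Rnf128, 0.012 for Rnf130, -0.060 for Trim6. With a pseudocount of 5 the value was -0.0047 for Trim24. With 1 library left out the ranges that crossed 0 were -0.12 to 0.18 for Rnf128, -0.097 to 0.047 for Rnf130, -0.051 to 0.19 for Rnf167, -0.012 to 0.11 for Rnf187, -0.24 to 0.070 for Trim13, -0.085 to 0.26 for Trim24, -0.0082 to 0.34 for Trim47, -0.14 to 0.22 for Trim54, -0.072 to 0.19 for Trim6. The causes were not tested. Over the 55 named genes, 971 of 1091 values kept their direction and side of the threshold, 61 passed it only under the alternative and 59 changed sign. TPM carry no depth, so the precision rests on 4 libraries a group.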
